A study of Homo sapiens with 16 samples.

Results

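Expression of 9 genes used as markers of neuroendocrine and neuronal differentiation was followed in androgen-treated and antiandrogen-treated LNCaP cells, a human prostate cancer line that responds to androgen. The genes were taken by symbol from a table of 60642 genes: ENO2, TUBB3, NTS, SYP, CHGA, CHGB, SCG2, INSM1 and REST. All 9 were present, and 5 of them (ENO2, TUBB3, NTS, SYP and REST) reached the level needed for testing, a TPM of at least 1 in 2 or more libraries. TPM is a transcript level corrected for gene length and scaled to the library total, so it can be compared between genes. Differences were fitted with limma on log2(TPM + 1), and a gene is said to be called, to rise or to fall where its p adjusted over all 16636 genes tested was below 0.05. This main fit had no term for the replicate number, and a fit with that term is given as the replicate block.

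Cells were grown in 5% fetal bovine serum for 72 h, and charcoal-stripped serum (5%), from which most steroid hormones have been removed, replaced it for the next 48 h. Treatment then lasted 48 h. The group VEH received only the solvents, ethanol and DMSO, and the group DHT received 10 nM of the androgen dihydrotestosterone. Cells of BIC.VEH, ENZ.VEH and APA.VEH received 10 µM bicalutamide, enzalutamide or apalutamide without DHT, and those of BIC.DHT, ENZ.DHT and APA.DHT received the same antagonist dose together with 10 nM DHT. Each of the 8 groups had 2 replicates, giving 16 libraries of RNA sequencing, labelled as biological replicates of a single cell line. The labels do not say whether replicates were separate cultures, so p-values measure the spread between these libraries, which may be technical. The comparisons ask whether loss of androgen, or its blockade by an antagonist, goes with a change in the marker genes.

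Neuroendocrine cells store peptides and amines in dense-core granules and share many transcripts with neurons. In prostate cancer, a neuroendocrine phenotype is known from tumors that have escaped hormone therapy, and LNCaP cells are a common model for it. REST is a repressor that binds RE1 elements and holds neuronal genes down in other tissues, while INSM1 is a zinc-finger factor that drives neuroendocrine differentiation. ENO2 and TUBB3 are cytoplasmic markers, NTS is a secreted peptide, SYP lies in the vesicle membrane, and CHGA, CHGB and SCG2 are granins of the granule core.

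The labelled cell type was checked with markers. The luminal prostate markers KRT8, KRT18, EPCAM, CDH1, HOXB13 and FOLH1 all reached a TPM of 1. Of 4 basal markers, KRT14 alone reached it, and their sum was 0 to 1.92, highest in the DHT libraries at 1.74 and 1.92. KRT14 reached a TPM of 1 in the DHT libraries and had at most 0.68 TPM elsewhere, so it passed the filter through the group where it was high and no test of it is given. Of the leukocyte markers PTPRC, CD3E, CD68 and LYZ, CD68 alone reached a TPM of 1, CD3E was at 0 in every library, and the sum was 1.04 to 12.2. The stromal sum was 12.4 to 35.2 TPM, lowest in the DHT libraries at 12.4 and 17.6 against 35.2 and 30.2 in VEH, with COL1A1 and COL3A1 the 2 of 6 stromal markers that reached a TPM of 1. COL1A2, DCN, PDGFRB and LUM had at most 0.01, 0.07, 0.45 and 0.6 TPM in any library, all labelled as a single cell line. COL1A1 was lower with DHT (log2 fold change -1.07, limma adjusted p = 0.0036), and which cells carried its transcripts was not tested. The part of these markers in the results on the 9 genes was not tested, and in bulk RNA fewer cells of a type and less RNA per cell cannot be told apart. The androgen targets KLK3, KLK2, TMPRSS2, FKBP5 and SLC45A3 were all called higher in DHT than in VEH, and STEAP4, with at most 0.06 TPM outside DHT and up to 1.69 in it, passed the filter through the DHT libraries alone.

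A pair of libraries stood apart. In ENZ.DHT replicate 1, 19.6% of the 13196 genes with a TPM of at least 1 in every library were at least 1.5-fold lower than in replicate 2, and in APA.DHT replicate 1 it was 22.9%, against 4.55% to 8.98% in the other groups. The longest coding transcripts of these lower genes had a median of 5201 and 5348.5 bases, against 3555.5 for all genes compared. Results that rest on these libraries are given below with and without them.

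The promoters of the 3 genes that fell with DHT are shown so that the letters upstream of each start can be read beside the levels. Each sequence is the 250 bases before the gene start, on the plus strand of RefSeq GRCh38.p14, with TGACTCA, the AP-1 motif, or its reverse complement TGAGTCA in capitals: ENO2 at chr12:6914330-6914579, TUBB3 at chr16:89921675-89921924 and NTS at chr12:85874045-85874294.
ENO2: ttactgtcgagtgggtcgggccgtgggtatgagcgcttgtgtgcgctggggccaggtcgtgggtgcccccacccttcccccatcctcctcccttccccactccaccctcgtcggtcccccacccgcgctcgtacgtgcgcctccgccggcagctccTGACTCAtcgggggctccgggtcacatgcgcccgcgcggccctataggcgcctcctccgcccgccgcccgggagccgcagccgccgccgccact
TUBB3: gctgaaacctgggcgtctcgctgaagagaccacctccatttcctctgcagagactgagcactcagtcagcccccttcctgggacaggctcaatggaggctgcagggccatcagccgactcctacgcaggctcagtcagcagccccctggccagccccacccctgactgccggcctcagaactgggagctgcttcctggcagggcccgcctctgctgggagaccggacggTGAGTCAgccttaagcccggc
NTS: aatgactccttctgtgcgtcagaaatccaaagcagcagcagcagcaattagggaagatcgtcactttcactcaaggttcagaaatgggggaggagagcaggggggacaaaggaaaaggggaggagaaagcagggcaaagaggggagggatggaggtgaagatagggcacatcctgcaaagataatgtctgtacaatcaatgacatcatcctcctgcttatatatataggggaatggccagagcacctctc

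The AP-1 match began 94 bases before the ENO2 start on the same strand and 21 bases before the TUBB3 start on the opposite strand. The NTS window held none. Windows were on hand for 6 of the 9 genes, 8 windows in all, and besides ENO2 and TUBB3 a REST window held the motif. Of 35116 RefSeq promoters of the same length, 4.20% held it on either strand. The other motifs searched on both strands were AGAACA, the core of androgen response elements, in 12.4% of all promoters, TATAAA in 10.7%, and the left and right parts of the RE1 element, TTCAGCACC in 0.288% and GGACAGCGC in 0.427%. These 4 motifs were in 0 of the 8 windows. A match is a string of letters and not a site shown to be bound. CHGB, SCG2 and INSM1 had no entry.

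Levels of the 9 genes differed widely in the same cells. In VEH, mean levels were 75.4 TPM for TUBB3, 59.0 for ENO2, 17.7 for REST and 4.86 for NTS, and SYP had 1.82 and 1.17 TPM. The VEH replicates of neighbouring genes in this order did not overlap. The other 4 genes stayed under 1 TPM in all 16 libraries, and the plot of levels by library shows all 9.

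**Figure D1:**
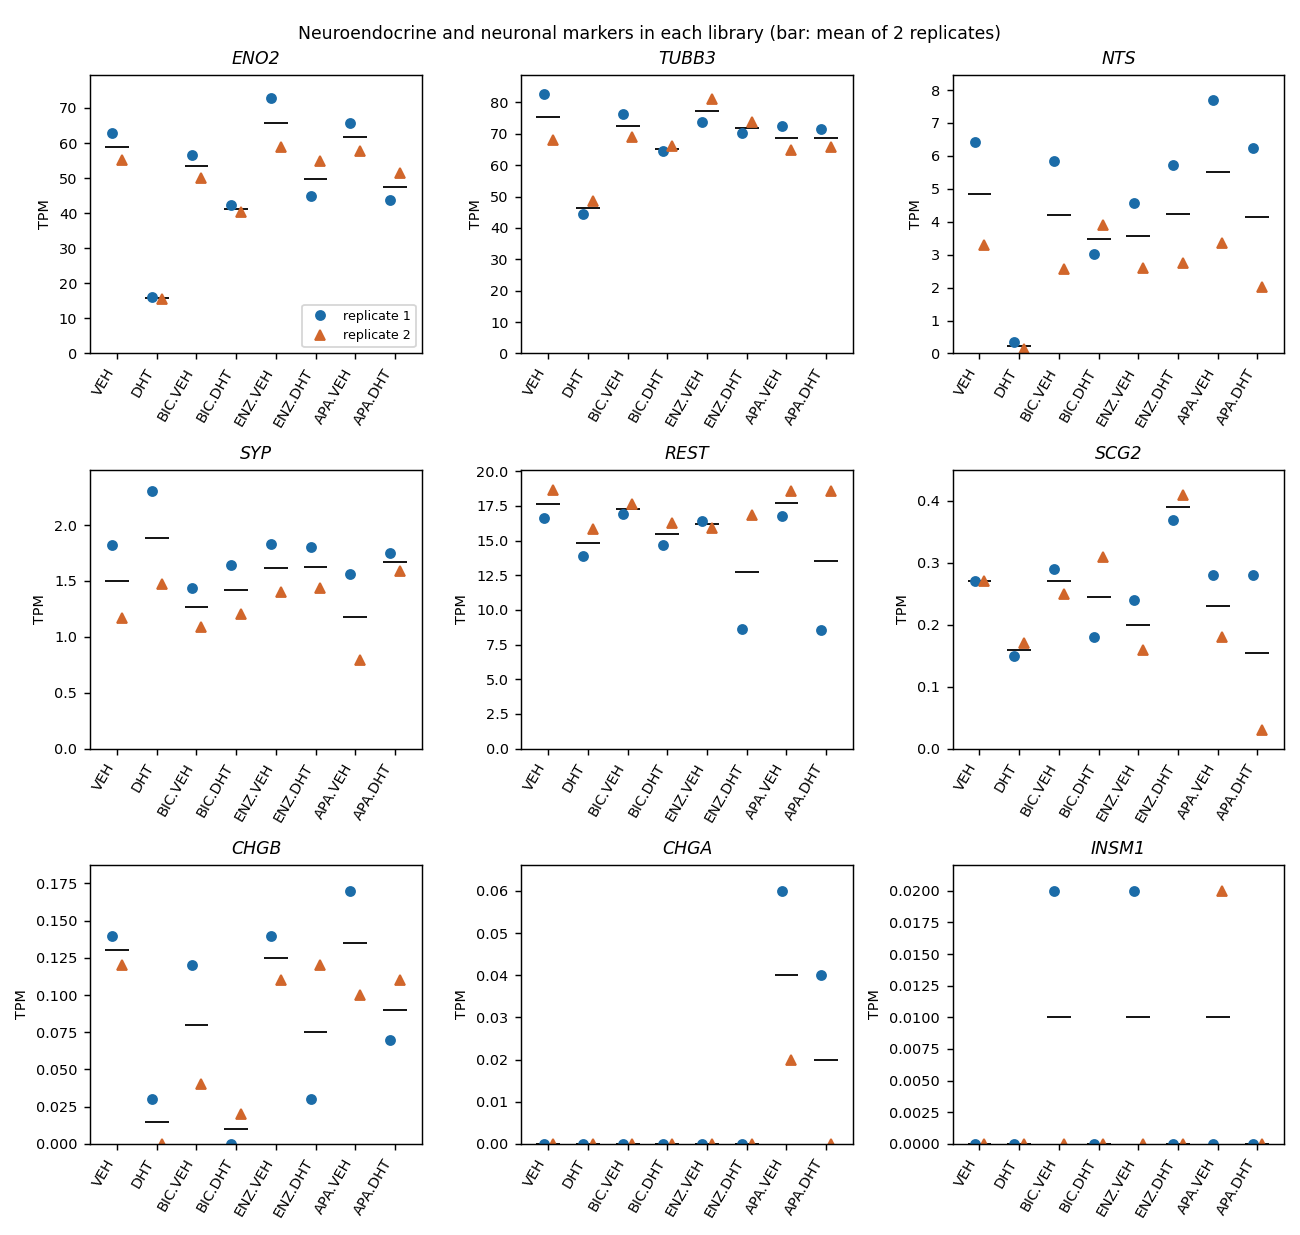
Level of each of the 9 genes in TPM (vertical axes, linear, each starting at 0) in the 8 treatment groups (horizontal axes). Circles are replicate 1, triangles replicate 2 and bars the mean of 2. ENO2, TUBB3 and NTS are lowest in both DHT libraries, and CHGA, CHGB, SCG2 and INSM1 stay under 1 TPM throughout.

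Counts of called genes set the members beside all genes. In DHT against VEH, 10.3% of 16636 genes were called and 6.64% were called lower, while 3 of the 5 members tested were called, all lower. In BIC.DHT against DHT, 3.13% of all genes were called and 1.45% called higher, and 1 member (ENO2) was higher. In ENZ.DHT against DHT, 9.65% were called and 4.74% called higher, and in APA.DHT 8.36% and 4.25%, with the same 3 members (ENO2, TUBB3 and NTS) higher in both. With the replicate block the shares were 27.4%, 13.3%, 29.2% and 27.3% in this order, and 3 members were called in each. The median log2 fold change of the 5 members was -0.68 in DHT against VEH, beside -0.10 over all genes. NTS could be tested only because it was high outside DHT, and these counts cover 5 of 9 genes. The members were chosen with earlier results of these data known, so the counts cannot be read as an excess over all genes.

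All 4 comparisons use the DHT libraries, so the falls with DHT and the rises with the antagonists are not separate evidence. Median-ratio scaling moved the median of all genes in DHT against VEH from -0.10 to 0.01 and the calls from 604 higher and 1105 lower to 1046 higher and 860 lower, and under it ENO2 changed by -1.70, TUBB3 by -0.55 (adjusted p = 0.024) and NTS by -2.12 (0.024).

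**Figure D2:**
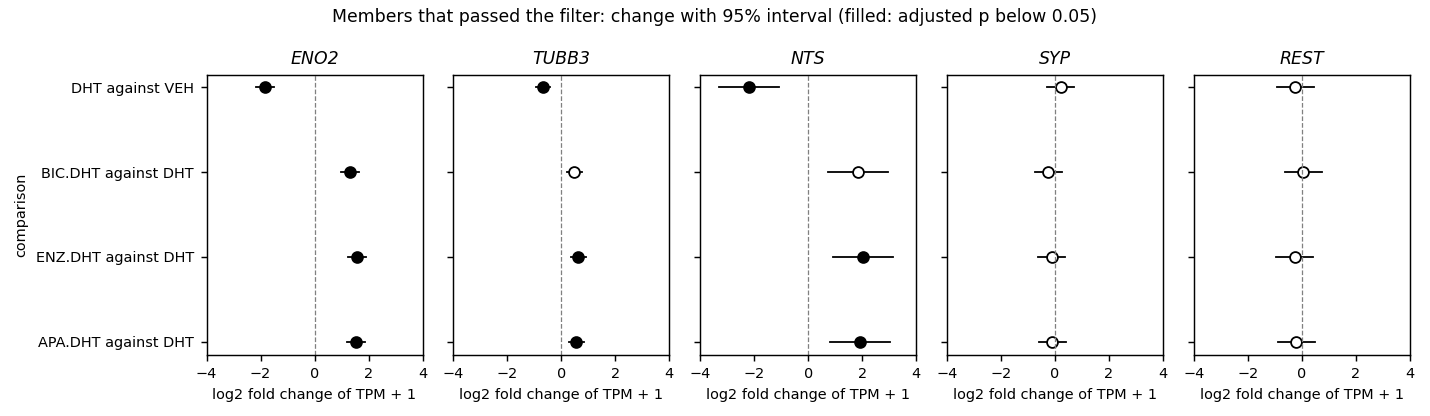
Log2 fold change of TPM + 1 (horizontal axes) with its 95% interval from limma for the 5 genes tested, in DHT against VEH and in each antagonist with DHT against DHT (vertical axis). Filled points have an adjusted p below 0.05, which ENO2 has in all 4 comparisons, TUBB3 and NTS in 3, and SYP and REST in 0.

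ENO2, the gamma enolase of neurons and neuroendocrine cells that converts 2-phosphoglycerate in glycolysis, fell with DHT and was higher with DHT and any of the antagonists than with DHT alone. The gene lies on chromosome 12, 6914580 to 6923697 (GRCh38.p14), and overlaps the annotated locus LOC124902868. ENO2 levels in VEH were 62.9 and 55.1 TPM, a mean of 59.0 ± 5.48 (SD, n = 2). In DHT they were 16.1 and 15.6 TPM, a mean of 15.8 ± 0.290. Both DHT libraries were below all 14 others, of which the lowest had 40.4 TPM. The mean was 3.72-fold lower in DHT than in VEH, and the log2 fold change of TPM + 1 was -1.83 (SE 0.15, limma adjusted p = 4.02e-05). ENO2 was called in all 10 alternative analyses of this comparison.

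With DHT and an antagonist, ENO2 lay between these levels. BIC.DHT had 42.2 and 40.4 TPM, ENZ.DHT 45.0 and 54.8, and APA.DHT 43.6 and 51.5. All 6 libraries were above the DHT libraries and below both VEH libraries, the highest of them by little. As a share of the VEH mean, ENO2 was at 26.9% in DHT, 70.0% in BIC.DHT, 84.6% in ENZ.DHT and 80.6% in APA.DHT. Against DHT, the log2 fold change was 1.33 for BIC.DHT (adjusted p = 0.00097), 1.59 for ENZ.DHT (0.00015) and 1.52 for APA.DHT (0.0002), each from limma. Without replicate 1 of ENZ.DHT and APA.DHT the changes were 1.73 (adjusted p = 0.00082) and 1.64 (0.0010). With only the 4 libraries of a comparison in the fit, the adjusted p was 0.11, 0.090 and 0.11 for BIC, ENZ and APA.

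Antagonist alone left no called change in ENO2. BIC.VEH had 56.7 and 50.2 TPM, ENZ.VEH 72.9 and 58.8, and APA.VEH 65.7 and 57.8. Against VEH, the 95% intervals of the log2 fold change were -0.47 to 0.19, -0.18 to 0.48 and -0.27 to 0.40, which leave room for differences within these bounds. Mean ENO2 was lower with DHT and antagonist than with the antagonist alone, with log2 fold changes of -0.36 for BIC, -0.39 for ENZ and -0.37 for APA and intervals of -0.69 to -0.03, -0.72 to -0.06 and -0.70 to -0.04. Their adjusted p from limma was 1.0, 0.84 and 0.96, so 0 of the 3 passed. The interaction, which asks whether an antagonist changes the response to DHT, was called for ENO2, at 1.47 for BIC, 1.44 for ENZ and 1.46 for APA (limma adjusted p = 0.0083, 0.0075 and 0.0083). The BIC value lost its call without VEH replicate 1 (1.37, adjusted p = 0.054), BIC.VEH replicate 2 (1.38, 0.057) or BIC.DHT replicate 1 (1.44, 0.056).

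TUBB3, the class III beta-tubulin of neuronal microtubules, moved the same way over a smaller range. It lies on chromosome 16, 89921925 to 89936097. TUBB3 levels were 82.8 and 68.0 TPM in VEH and 44.4 and 48.6 in DHT, means of 75.4 ± 10.5 and 46.5 ± 2.94 (SD, n = 2). Both DHT libraries were below all 14 others, whose lowest had 64.6 TPM. The mean was 1.62-fold lower with DHT (log2 fold change -0.68, SE 0.13, limma adjusted p = 0.0063). Without DHT replicate 1 the TUBB3 change was -0.62 (adjusted p = 0.053), and without VEH replicate 1 it was -0.54 (0.074).

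The antagonists brought TUBB3 with DHT to 86.7% (BIC), 95.5% (ENZ) and 91.1% (APA) of the VEH mean, against 61.7% for DHT. BIC.DHT had 64.6 and 66.0 TPM, ENZ.DHT 70.2 and 73.7, and APA.DHT 71.5 and 65.8, all above both DHT libraries. Against DHT, the log2 fold change of TUBB3 was 0.62 for ENZ.DHT (limma adjusted p = 0.012) and 0.55 for APA.DHT (0.021). It was 0.48 for BIC.DHT, which missed the threshold (adjusted p = 0.069) and passed it with the replicate number as a block (0.017). The ENZ value lost its call without DHT replicate 1 (0.56, adjusted p = 0.081) or ENZ.DHT replicate 1 (0.65, 0.051). The APA value lost it without DHT replicate 1 (0.49, adjusted p = 0.12), DHT replicate 2 (0.62, 0.073) or APA.DHT replicate 1 (0.49, 0.11). In the absence of DHT the antagonists left TUBB3 at 76.2 and 68.9 TPM (BIC.VEH), 73.8 and 81.1 (ENZ.VEH) and 72.5 and 64.8 (APA.VEH), ranges that overlap VEH. The interaction was 0.53 for BIC, 0.58 for ENZ and 0.68 for APA, with limma adjusted p of 0.26, 0.16 and 0.11, or 0.075, 0.043 and 0.022 with the replicate block.

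NTS encodes the precursor of neurotensin, a peptide secreted by neurons and endocrine cells. It lies on chromosome 12, 85874295 to 85882992, and had the largest fold difference of the 5 genes tested, at low levels. NTS levels were 6.41 and 3.30 TPM in VEH and 0.35 and 0.12 in DHT. The DHT libraries were the lowest of the 16, and the lowest of the other 14 had 2.02 TPM, so the gene passed the filter through the libraries outside DHT. The mean was 20.7-fold lower with DHT, a ratio that rests on values near 0 and on an unknown number of reads. On the scale of log2(TPM + 1) the change was -2.20 (SE 0.50, limma adjusted p = 0.019), and with a pseudocount of 0.1 it was -3.90. Without VEH replicate 1 the NTS change was -1.81 (adjusted p = 0.16), without DHT replicate 1 -2.33 (0.071) and without DHT replicate 2 -2.06 (0.12).

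NTS was higher with DHT and antagonist than in both DHT libraries. BIC.DHT had 3.03 and 3.91 TPM, ENZ.DHT 5.73 and 2.76, and APA.DHT 6.24 and 2.02, or 71.5%, 87.4% and 85.1% of the VEH mean against 4.84% in DHT. Against DHT, the log2 fold change was 2.03 for ENZ.DHT (limma adjusted p = 0.029) and 1.93 for APA.DHT (0.039). For BIC.DHT it was 1.86 (adjusted p = 0.081, or 0.0027 with the replicate block). Both NTS calls were lost with 1 library fewer, the ENZ call without DHT replicate 1 (2.17, adjusted p = 0.095), DHT replicate 2 (1.90, 0.16) or ENZ.DHT replicate 1 (1.61, 0.21), and the APA call without DHT replicate 1 (2.06, 0.12), DHT replicate 2 (1.79, 0.19) or APA.DHT replicate 1 (1.296, 0.23). They were also lost with no filter on low genes (0.069 and 0.089).

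Replicate 1 had more NTS than replicate 2 in 7 of 8 groups. BIC.VEH had 5.84 and 2.57 TPM, ENZ.VEH 4.56 and 2.60, and APA.VEH 7.69 and 3.35, none called against VEH. The NTS interaction was 2.05 for BIC, 2.37 for ENZ and 1.80 for APA, with limma adjusted p of 0.29, 0.15 and 0.30 in the fit without a block and 0.017, 0.0063 and 0.022 with the replicate block. Of the neurotensin receptors, SORT1, which also sorts proteins to lysosomes, was the only one to reach the filter, at 6.52 to 11.96 TPM. SORT1 was not called with DHT (log2 fold change -0.32, limma adjusted p = 0.44). The signalling receptors NTSR1 and NTSR2 stayed at 0 to 0.11 and 0 to 0.09 TPM.

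SYP encodes synaptophysin, a membrane protein of small synaptic-like vesicles, and lies on chromosome X, 49187815 to 49200193, where it overlaps the antisense gene SYP-AS1. Whether the counting used strand is not given in the sources used here, so reads of SYP and SYP-AS1, or of ENO2 and LOC124902868, may not have been told apart. SYP levels were 1.82 and 1.17 TPM in VEH and 2.30 and 1.47 in DHT, so the groups overlapped while DHT was higher within each replicate number. BIC.DHT had 1.64 and 1.20 TPM, ENZ.DHT 1.80 and 1.44, and APA.DHT 1.75 and 1.59. Across all libraries SYP ran from 0.79 to 2.30 TPM, and replicate 1 was higher than replicate 2 in 8 of 8 groups. The change with DHT was 0.21 on the log2 scale (95% interval -0.31 to 0.72, limma adjusted p = 0.63, or 0.33 with the replicate block). Without DHT replicate 1 it was -0.0022, a fit that sets DHT replicate 2 against both VEH replicates. Against DHT the antagonist groups differed by -0.24 (BIC), -0.13 (ENZ) and -0.10 (APA), none called.

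Of the granins, which help to form dense-core granules, none reached 1 TPM. CHGA on chromosome 14, 92922664 to 92935285, was listed at 0 in 13 of 16 libraries, with 0.06 and 0.02 TPM in APA.VEH and 0.04 in APA.DHT replicate 1. CHGB on chromosome 20, 5911510 to 5925353, ran from 0 to 0.17 TPM, with 0.14 and 0.12 in VEH and 0.03 and 0 in DHT. SCG2 on chromosome 2, 223596940 to 223602361, ran from 0.03 to 0.41 TPM, with 0.27 in both VEH libraries and 0.15 and 0.17 in DHT. INSM1 on chromosome 20, 20368104 to 20370949, was listed at 0 in 13 libraries and reached 0.02 TPM in 3. TPM keeps no read counts, so these genes were at or near the limit of what the table can show, and no fold or test is given for them.

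REST on chromosome 4, 56907900 to 56935844, was measured at 16.7 and 18.7 TPM in VEH and 13.9 and 15.8 in DHT. The DHT libraries were both below VEH, a difference that was not called (log2 fold change -0.24, 95% interval -0.92 to 0.45, limma adjusted p = 0.69). BIC.DHT had 14.7 and 16.2 TPM. ENZ.DHT had 8.64 and 16.8, and APA.DHT 8.57 and 18.6, so the replicates of these groups differed more than any groups did. Against DHT, the REST change was 0.06 for BIC.DHT, -0.27 for ENZ.DHT and -0.21 for APA.DHT. Without replicate 1 of ENZ.DHT and APA.DHT the last values became 0.17 and 0.31. Against the antagonist alone, ENZ.DHT and APA.DHT changed from -0.39 and -0.45 to 0.05 and 0.07. The longest coding transcript of REST has 7371 bases, more than the median of the genes low in those libraries, and the part of transcript length was not tested.

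The 16 genes that work with REST, such as the corepressors RCOR1 and SIN3A and the deacetylases HDAC1 and HDAC2, were also read by replicate. Replicate 2 was the higher for REST in 7 of 8 groups. For RCOR1, KDM1A, HDAC2, SIN3A, EHMT2 and USP15 it was so in 8 of 8. HDAC1, BTRC, RCOR3 and CTDSP1 had replicate 1 higher in 5, 5, 6 and 6 groups. For many of these genes a lower replicate 1 was therefore not particular to ENZ.DHT and APA.DHT. All 16 were lower in replicate 1 than in replicate 2 of ENZ.DHT (median ratio 0.743), and 15 of 16 in APA.DHT (0.695). Over all 16636 genes tested, 58.1% were lower in replicate 1 of ENZ.DHT (median ratio 0.914) and 61.2% in that of APA.DHT (0.882). Replicate 1 was below all 14 libraries outside this pair in 11 and 9 of the 16 genes, and in 29.2% and 27.7% of all genes tested. All 16 passed the filter, and 2 were called with DHT, both lower: RCOR2, a corepressor, and EHMT2, a histone H3 lysine methyltransferase. RCOR2 had 3.72 and 2.88 TPM in VEH and 1.04 and 0.72 in DHT (log2 fold change -1.19, limma adjusted p = 0.0024). EHMT2 had 43.7 and 45.5 TPM in VEH and 31.4 and 34.0 in DHT (-0.44, adjusted p = 0.020), a call lost without any of the 4 libraries (0.062 to 0.12) and with median-ratio scaling (0.077). With ENZ and APA the same genes were called higher than in DHT, RCOR2 by 0.95 and 0.89 and EHMT2 by 0.39 and 0.40.

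No member was called in any of the other comparisons without interaction. Antagonist alone against VEH called 0% of genes for BIC, 0% for ENZ and 0.00601% for APA. At an unadjusted p under 0.05 these were 194, 139 and 151 of 16636 genes, and the replicate block called 3, 0 and 2 genes. DHT against solvent in the presence of the antagonist called 0% (BIC), 0.00601% (ENZ) and 0.00601% (APA) of genes, with 234, 541 and 408 at an unadjusted p under 0.05 and 0, 1 and 4 called with the block. The interaction called 0.986% (BIC), 1.63% (ENZ) and 1.42% (APA) of all genes, or 6.39%, 9.91% and 10.1% with the block. ENO2 was the 1 member called for each antagonist without the block.

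Bicalutamide, enzalutamide and apalutamide were compared with each other at the same dose and time in the presence of DHT, in 3 pairs. Enzalutamide and apalutamide share a thiohydantoin core, apalutamide having a cyclobutane ring in place of the paired methyl groups and a pyridine ring in place of a benzene ring, and bicalutamide is a propanamide without that core. For ENO2 the log2 difference was 0.26 for ENZ.DHT minus BIC.DHT (95% interval -0.07 to 0.59), 0.19 for APA.DHT minus BIC.DHT (-0.14 to 0.53) and -0.07 for APA.DHT minus ENZ.DHT (-0.40 to 0.27). For TUBB3 these were 0.14 (-0.14 to 0.41), 0.07 (-0.21 to 0.35) and -0.07 (-0.34 to 0.21). The intervals of NTS were wider, -0.93 to 1.29, -1.04 to 1.18 and -1.21 to 1.00. No member was called in these pairs, where 0.00601%, 0% and 0.00601% of all genes were, with 565, 483 and 102 at an unadjusted p under 0.05 and 2, 9 and 1 called with the block. The intervals leave room for differences within their bounds.

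Close relatives of ENO2 and TUBB3 did not all move with them. ENO1, the enolase of most tissues, had 604.1 and 642.0 TPM in VEH and 895.5 and 1075 in DHT, the reverse of ENO2. Its log2 fold change was 0.66 with DHT (limma adjusted p = 0.041) and -0.78 and -0.73 with ENZ and APA against DHT (0.022 and 0.029). The ENO1 call with DHT was lost without any of the 4 libraries (adjusted p = 0.071 to 0.23). The ENZ call of ENO1 was lost without ENZ.DHT replicate 1 or DHT replicate 2 (0.15 to 0.17), and the APA call without APA.DHT replicate 1 or either DHT library (0.059 to 0.19). ENO3, the muscle enolase, had 19.9 and 22.9 TPM in VEH and 16.6 and 22.0 in DHT and was not called (-0.16, adjusted p = 0.67).

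Among the beta-tubulins, TUBB4A, a neuronal and glial form, followed TUBB3 with a larger difference. TUBB4A had 61.5 and 59.0 TPM in VEH and 16.2 and 20.8 in DHT (log2 fold change -1.66, limma adjusted p = 0.0020), and the call held without each of the 4 libraries. It was higher than DHT by 1.10 in BIC.DHT, 1.08 in ENZ.DHT and 1.15 in APA.DHT (adjusted p = 0.042, 0.022 and 0.018). The BIC call was lost without any 1 of its 4 libraries (0.12 to 0.23), the ENZ call without either DHT library or ENZ.DHT replicate 2 (0.063 to 0.13), and the APA call without either DHT library or APA.DHT replicate 2 (0.056 to 0.12). TUBB, the widely expressed form, had 725.3 and 689.0 TPM in VEH and 989.1 and 1046 in DHT (0.52, adjusted p = 0.080, or 0.015 with the replicate block and with median-ratio scaling). TUBB was lower than DHT by -0.81 in ENZ.DHT (adjusted p = 0.015) and -0.70 in APA.DHT (0.029), calls lost without either DHT library or replicate 1 of the antagonist group (0.062 to 0.12 and 0.097 to 0.19). TUBB2A, TUBB4B and TUBB6 were not called, with DHT changes of -0.13, 0.36 and -0.70, and TUBB4B and TUBB6 were called with the replicate block. Reads of near-identical tubulin and enolase copies are shared out by a model, so single values of these families are uncertain.

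**Figure D3:**
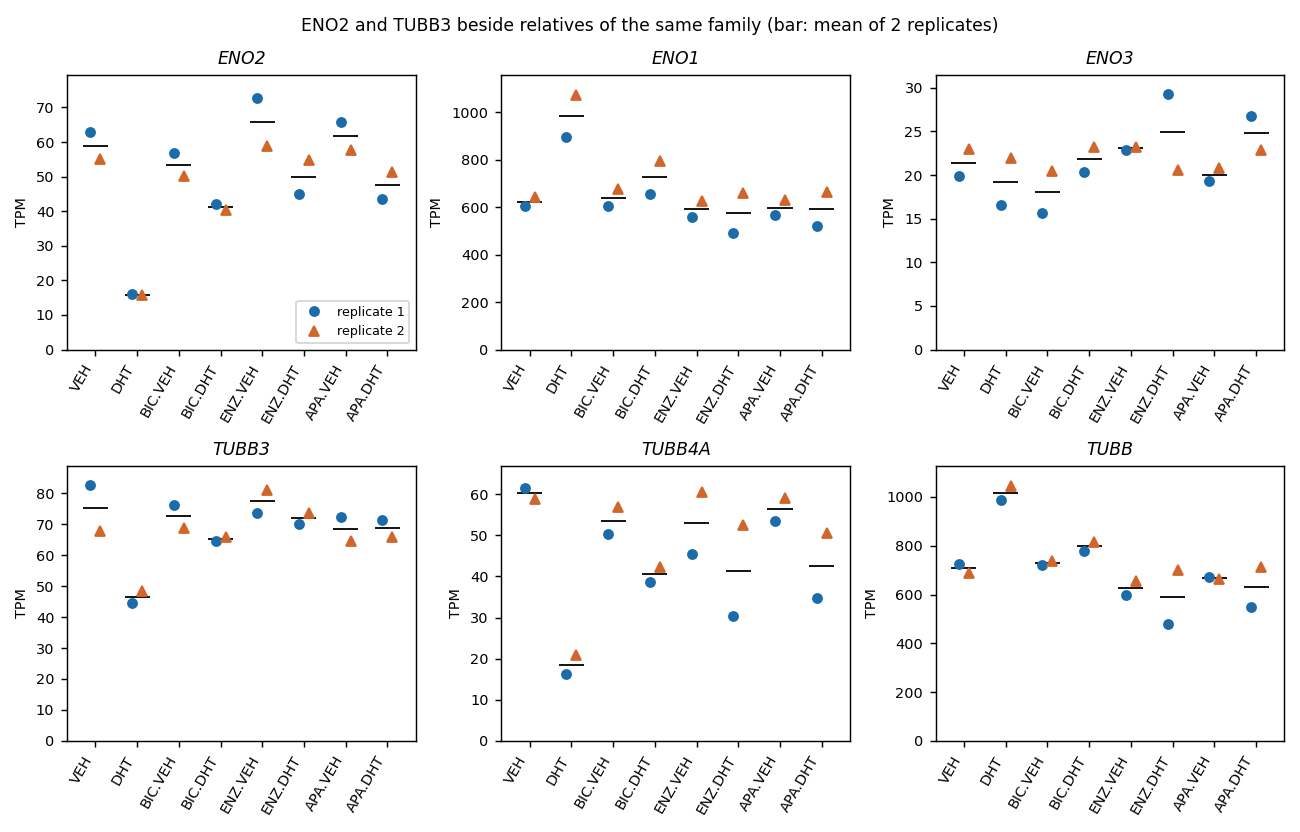
Levels in TPM (vertical axes, linear, each starting at 0) of ENO2, ENO1 and ENO3 (top) and TUBB3, TUBB4A and TUBB (bottom) in the 8 groups, with circles for replicate 1, triangles for replicate 2 and bars for the mean of 2. ENO2, TUBB3 and TUBB4A are lowest in DHT, while ENO1 and TUBB are highest there.

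Further genes of the neuroendocrine and neuronal program were read from 5 lists with 117 genes, of which 54 passed the filter. With DHT, 5 were called higher and 8 lower (24.1% of 54, beside 10.3% of all genes), and with the replicate block 9 and 17 (48.1%, beside 27.4%). The counts of 5 and of 9 include VGF, which passed the filter through the DHT libraries alone. VGF is also among the lower genes counted below in ENZ.DHT and APA.DHT, and with the block in BIC.DHT too. Their median log2 fold change was -0.18, beside -0.10 over all genes. Against DHT, 2 were called higher and 0 lower in BIC.DHT (3.70%, close to the 3.13% of all genes), 7 and 6 in ENZ.DHT (24.1%, beside 9.65%), and 8 and 6 in APA.DHT (25.9%, beside 8.36%). With the block these were 10 and 5 (27.8%, beside 13.3%), 11 and 13 (44.4%, beside 29.2%), and 10 and 10 (37.0%, beside 27.3%). Genes of these lists were called in both directions. The lists were chosen with earlier results of these data known, so their shares cannot be read as an excess over all genes.

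**Figure D4:**
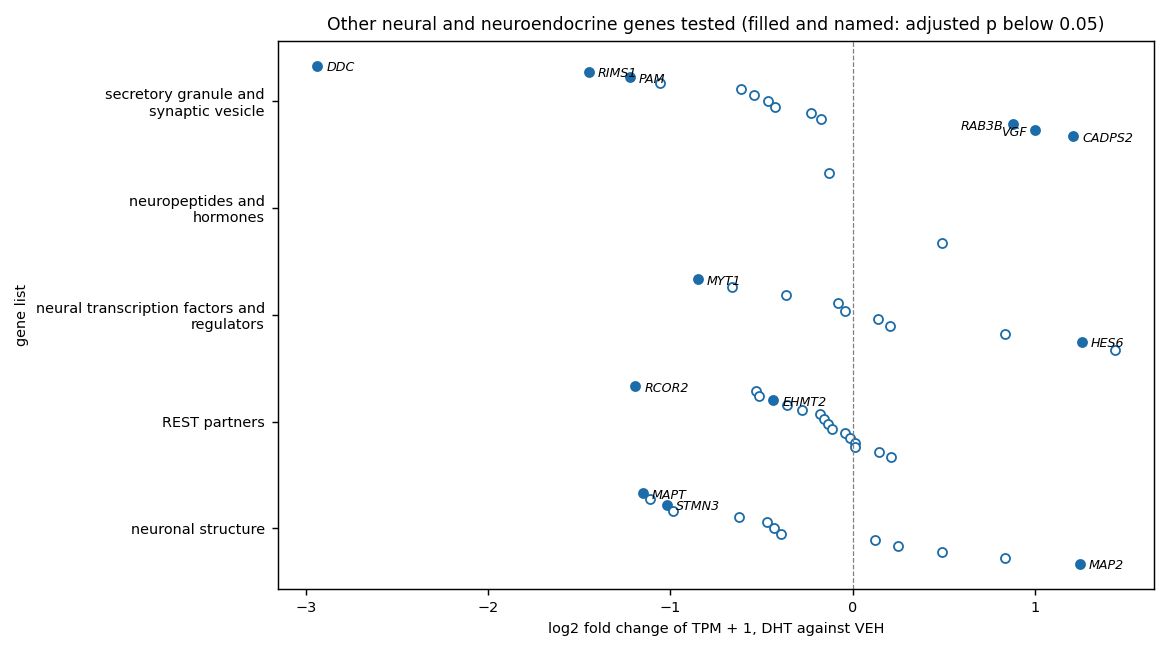
Log2 fold change of TPM + 1 in DHT against VEH (horizontal axis) of the 54 tested genes in 5 neural and neuroendocrine lists (vertical axis; height within a list only separates the points). Filled, named points have an adjusted p below 0.05, 8 on the lower side and 5 on the higher side. VGF, on the higher side, passed the filter through the DHT libraries alone.

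Of 29 genes of secretory granules and synaptic vesicles, 13 were tested, 3 fell and 3 rose with DHT. DDC, the aromatic amino acid decarboxylase that makes dopamine and serotonin, was the most abundant, with 840.3 and 568.4 TPM in VEH and 110.2 and 72.4 in DHT (log2 fold change -2.94, limma adjusted p = 0.00093). DDC was higher than DHT by 2.52, 2.93 and 2.94 in BIC.DHT, ENZ.DHT and APA.DHT (adjusted p = 0.0055, 0.0011 and 0.0011), at 75.7%, 99.8% and 100.6% of the VEH mean. PAM, which amidates peptide hormones, had 8.21 and 8.99 TPM in VEH and 3.34 and 2.90 in DHT (-1.22, adjusted p = 0.0018). RIMS1, a scaffold of the active zone, had 64.7 and 48.9 TPM in VEH and 24.7 and 16.2 in DHT (-1.45, adjusted p = 0.0084). CADPS2, a factor for granule release, went the other way, from 0.92 and 0.57 TPM to 3.76 and 2.39 (1.21, adjusted p = 0.021). RAB3B, a vesicle GTPase named after its values were seen, also rose (0.88, adjusted p = 0.019). VGF, a granin-like precursor likewise named afterwards, had 0.34 and 0.36 TPM in VEH and 1.56 and 1.86 in DHT, and at most 0.82 outside DHT. It passed the filter through the DHT libraries alone, so it had to differ and its call supports nothing.

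Calls of DDC and PAM with DHT held without each of the 4 libraries. Those of RIMS1 were lost without DHT replicate 2 or VEH replicate 1 (adjusted p = 0.087 each), those of CADPS2 without DHT replicate 1, VEH replicate 1 or VEH replicate 2 (0.15, 0.073 and 0.13), and that of RAB3B without any 1 of the 4 (0.054 to 0.13). With the replicate block 3 of the list were higher and 7 lower. Of 15 neuropeptides and hormones, 13 did not reach the filter and neither of the 2 tested, GAL and UCN, was called with DHT (log2 fold changes 0.49 and -0.13, limma adjusted p = 0.56 and 0.85). In the synaptophysin family, 4 of 6 relatives were tested, with SYNGR3 lower (-1.37, adjusted p = 0.031) and SYNGR2 higher (0.53, 0.030) with DHT, both named after their values were seen. The SYNGR2 call was lost without any 1 of the 4 libraries (0.076 to 0.17), and that of SYNGR3 without DHT replicate 2, VEH replicate 1 or VEH replicate 2 (0.057 to 0.23) and with median-ratio scaling (0.052).

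Of 27 neural transcription factors and regulators, 10 were tested, 1 rose and 1 fell with DHT. Of the lineage factors of neuroendocrine tumors, NEUROD1 was at no more than 0.03 TPM and POU3F2 at no more than 0.22. They do not stand for the whole list. ONECUT2 had 1.12 to 2.02 TPM, DLL3 1.79 to 3.17, EZH2 4.63 to 19.01 and AURKA 2.75 to 28.23, at least 1 in all 16 libraries. MYT1, a zinc-finger factor of neural progenitors, had 7.01 and 6.33 TPM in VEH and 3.42 and 3.10 in DHT (log2 fold change -0.85, limma adjusted p = 0.0044), a call that held without each of the 4 libraries. HES6, a HES family member that promotes neurogenesis, had 13.2 and 15.9 TPM in VEH and 29.9 and 43.5 in DHT (1.26, adjusted p = 0.020). The HES6 call was lost without DHT replicate 2 (0.16), VEH replicate 1 (0.14) or VEH replicate 2 (0.062). Against DHT, MYT1 was higher by 0.57 and 0.65 and HES6 lower by -1.19 and -1.47 in ENZ.DHT and APA.DHT.

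Of 30 genes of neuronal structure, 13 were tested, 2 fell and 1 rose with DHT. The microtubule genes moved in both directions. MAPT, which encodes tau, had 15.6 and 11.9 TPM in VEH and 6.32 and 4.95 in DHT (log2 fold change -1.15, limma adjusted p = 0.011), and MAP2 had 8.04 and 8.91 in VEH and 20.2 and 22.8 in DHT (1.25, 0.0027). STMN3, a stathmin that destabilises microtubules, had 16.9 and 13.4 TPM in VEH and 7.22 and 6.64 in DHT (-1.02, adjusted p = 0.0080). BEX2, a brain-expressed adaptor, was not called with DHT (-0.62, adjusted p = 0.091, or 0.0038 with the block) and was higher than DHT by 0.83 in ENZ.DHT and 0.77 in APA.DHT, the latter not called with median-ratio scaling (0.058). The MAPT and STMN3 calls were lost without DHT replicate 2 (adjusted p = 0.095 and 0.065) or VEH replicate 1 (0.11 and 0.087), and that of MAP2 held without each of the 4 libraries.

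In the fit without a block, calls of these other named genes against DHT rested on few libraries. With the replicate block and all 16 libraries none of these calls was lost. DDC then had a limma adjusted p of 8.1e-09 in BIC.DHT, 1.6e-09 in ENZ.DHT and 1.6e-09 in APA.DHT. Leaving out single libraries was not tried with the block. The counts given next for ENZ.DHT and APA.DHT include VGF, which passed the filter through the DHT libraries alone. Of 16 called in ENZ.DHT, DDC alone kept its call without each of the 4 libraries in turn, of 17 in APA.DHT DDC and MAP2 did, and of 3 in BIC.DHT none did, the DDC call there being lost without BIC.DHT replicate 1 (adjusted p = 0.075) or DHT replicate 2 (0.067).

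As a description, levels were compared by Pearson r of log2(TPM + 1) over the 16 libraries, which share groups and a cell line. Named here are the genes most like each member. For ENO2 they were FAM66D (0.987) and SMARCD3 (0.985), for TUBB3 DIPK1B (0.951) and BCAM (0.944), and for NTS AK1 and DNAJC12 (0.949 each). For SYP they were ARRDC1 (0.879) and TRPM4 (0.858), and for REST NOTCH2 and MSL2 (0.990 each). REST had 8.64 and 8.57 TPM in replicate 1 of ENZ.DHT and APA.DHT, and at least 13.87 in the other 14 libraries. Its r without that pair of libraries was not computed. Between members, r was 0.916 for ENO2 with TUBB3, 0.819 for ENO2 with NTS and 0.833 for TUBB3 with NTS. These genes were all lowest in the DHT libraries, so these r are not separate from the falls given above. SYP had r of -0.313 with ENO2, -0.192 with TUBB3 and -0.077 with NTS. REST had r of 0.233 with ENO2, 0.045 with TUBB3, -0.2 with NTS and -0.493 with SYP.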

How the data were processed

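RNA from 16 LNCaP libraries (8 groups, 2 replicates) was sequenced by the authors as stranded, poly(A)-selected 125 bp paired reads, about 40 M read pairs per library per the labels. Per the submitters' processing notes, reads were checked (FastQC 0.11.9), trimmed (Trim Galore 0.6.5), aligned to GRCh38 (STAR 2.7.2b) and quantified (RSEM 1.3.3). The deposited values are TPM per gene symbol, by which a rise in abundant transcripts lowers all others. Library totals ran from 976190 to 983114, and 14652 to 15360 genes reached a TPM of 1. TPM keeps no counts, so depth behind each value is unknown and no counting interval or floor is given.

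Groups were taken from the labels. The 16636 of 60642 genes with a TPM of at least 1 in 2 or more libraries were fitted as log2(TPM + 1), which understates changes of low genes, with limma 3.58.1 (trend option, R 4.3.3), on 8 group means over all 16 libraries. Benjamini-Hochberg adjustment was over all genes within each of the comparisons, and an adjusted p below 0.05 was a call. The code of the fit was checked on simulated data, with large changes set in 200 genes of the DHT group and independent noise in each library. That check does not cover correlated replicates or small changes. Alternatives were a pseudocount of 0.1, no filter, median-ratio scaling, a replicate block, only the groups compared, and each library left out. Omitting ENZ.DHT and APA.DHT replicate 1 together was added after the data were seen. Replicate numbers come from the labels. Replicate differences correlated over genes in 28 of 28 pairs of groups (0.204 to 0.635, median 0.427), so the replicate block takes the numbers to pair libraries. The main fit has no term for this pairing, and its p-values leave it out. In BIC.DHT against DHT the main fit called 1 member and the fit with the block 3.

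The 9 members and the gene lists were chosen with earlier results of these data known, and a few listed genes are not reported here. Every member is named, with every enolase, beta-tubulin and neurotensin receptor that passed the filter. From each of the 5 neural lists, up to 4 called genes are named, those of largest absolute log2 fold change over DHT against VEH and the antagonists with DHT against DHT whose group mean reached a TPM of 1. Likeness took the 2 genes with the highest r and a mean TPM of at least 5. Positions, promoters and overlaps are from RefSeq GRCh38.p14, and transcript lengths from GENCODE. Python 3.11.15, pandas 2.3.3, numpy 2.4.6 and matplotlib 3.10.9 were used.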

Additional observations from a re-analysis of the deposited data

Results flagged for a closer look

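The response of ENO2 to DHT differed between cells with and without an antagonist, by the test of the difference itself. The interaction was 1.47 on the log2 scale for BIC, 1.44 for ENZ and 1.46 for APA (limma adjusted p = 0.0083, 0.0075 and 0.0083). ENO2 fell by 1.83 with DHT alone, and the change with DHT was -0.36, -0.39 and -0.37 in the presence of BIC, ENZ and APA. All 3 values use the same VEH and DHT libraries and are not separate tests of the response to DHT.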

How the results depend on the processing

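ENO2 kept its direction in every alternative of the comparisons with DHT, of the interactions and of DHT with antagonist against antagonist, and its call in DHT against VEH in all 10. With the groups compared alone in the fit, the number of members called was 1 in DHT against VEH, 0 in BIC.DHT, 0 in ENZ.DHT and 0 in APA.DHT against DHT, and 0 in the ENZ and 0 in the APA interaction. These fits have fewer libraries. The replicate block, with which 3 members were called in BIC.DHT against DHT and 2, 3 and 3 in the BIC, ENZ and APA interactions, changed no other call of a member. A pseudocount of 0.1 gave 2 members in BIC.DHT against DHT, and omitting ENZ.DHT and APA.DHT replicate 1 together gave 2 there, 2 in ENZ.DHT (NTS was lost, adjusted p = 0.13) and 1 in APA.DHT against DHT. The cause was not tested. Leaving out single libraries gave 1 to 3 members in DHT against VEH, 1 in BIC.DHT, 1 to 3 in ENZ.DHT and 1 to 3 in APA.DHT against DHT, 0 to 1 in the BIC interaction and 1 in the others. With 1 library left in a group, that library is assumed to vary like the other groups.

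Uncalled values changed sign with 1 library left out. SYP ran from -0.0022 to 0.416 in DHT against VEH, and against DHT from -0.336 to 0.0816 in ENZ.DHT and from -0.306 to 0.112 in APA.DHT, turning without DHT replicate 1. REST in BIC.DHT against DHT ran from -0.0324 (without DHT replicate 1) to 0.144, and was -0.013 without BIC.DHT replicate 2. REST in ENZ.DHT and APA.DHT ran from -0.714 to 0.174 and from -0.724 to 0.307 against DHT, and from -0.834 to 0.0537 and from -0.964 to 0.0678 against the antagonist alone, the higher values being those without replicate 1, singly or of both groups together. Genes called in DHT against VEH and in BIC.DHT, ENZ.DHT and APA.DHT against DHT numbered 1709, 521, 1605 and 1391, with the block 4559, 2216, 4863 and 4545, and with the groups compared alone 173, 0, 7 and 0 by limma (2745 and 2501 at an unadjusted p under 0.05 where 0 were called). Leaving out single libraries gave 635 to 823, 106 to 175, 499 to 1799 and 454 to 1428, and omitting replicate 1 of both groups 2631, 917, 976 and 1173. TPM gives no depth, so what limits CHGA, CHGB, SCG2 and INSM1 cannot be stated in reads.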
